A study of Mus musculus with 2 samples.

Results

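The axon guidance ligands and receptors taken here were 66 genes of the 20807 autosomal protein-coding genes of GENCODE M21. They were chosen by symbol alone: semaphorins, plexins, Slit and Robo genes, netrins, Unc5 genes, Dcc, neuropilins, Eph receptors and ephrins. The 66 comprised 34 ligand genes and 32 receptor genes. Another 3 genes matching these symbols lie on the X chromosome and were left out by the rule. Chromatin accessibility was measured by DNase-seq, in which the enzyme DNase I cuts DNA where chromatin is open, in right cerebral cortex tissue. The animals were female adult mice of strain B6CASTF1/J, first-generation hybrids of C57BL/6J and CAST/EiJ, aged 18 to 20 months. The labels give 1 group of 2 biological replicates with no treatment, genotype contrast or control tissue, so accessibility was described within the cortex and no test between groups was possible. The biosamples carry the same donor identifier, and no source says whether they came from separate animals, so the spread between the replicates may be partly technical. Coordinates and sequences are those of the mm10 reference, which represents the C57BL/6J copy. Signal from the C57BL/6J and CAST/EiJ copies was not separated here, and the CAST/EiJ sequence was not analysed.

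Axon guidance molecules steer growing nerve fibres toward or away from their targets. Semaphorins signal through plexins, with neuropilins as co-receptors for the secreted class 3 members. Slit proteins repel axons through Robo receptors. Netrins attract through Dcc and repel through Unc5 receptors. Ephrins are anchored in the membrane and bind Eph receptor tyrosine kinases on neighbouring cells, with signals passing in either direction. In the mature cortex many of these proteins remain at synapses, on glia or on blood vessels. A gene's promoter is the sequence around its transcription start sites, and distal regions of open chromatin include candidate enhancers and insulators.

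The sequences below come from the strongest promoter peaks among the genes, from distal regions that the results turn on and from the Sema3b promoter. They are read from the mm10 reference on the plus strand, 5′ to 3′. Capitals mark bases that lay inside a footprint in both replicates, a footprint being a short stretch protected from DNase I within open chromatin. The promoter sequences show the part of the peak common to both replicates that lies clear of annotated exons. The 3 members with the highest promoter values were the receptor genes Ephb3 and Epha7 and the ligand gene Efnb2.
Ephb3 promoter, chr16:21204401-21204619: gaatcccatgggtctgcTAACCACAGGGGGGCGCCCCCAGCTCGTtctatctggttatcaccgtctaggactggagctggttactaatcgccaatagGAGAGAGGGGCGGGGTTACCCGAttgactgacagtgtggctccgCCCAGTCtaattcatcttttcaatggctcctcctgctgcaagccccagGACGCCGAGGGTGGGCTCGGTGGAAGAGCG
Efnb2 promoter, chr8:8661243-8661440: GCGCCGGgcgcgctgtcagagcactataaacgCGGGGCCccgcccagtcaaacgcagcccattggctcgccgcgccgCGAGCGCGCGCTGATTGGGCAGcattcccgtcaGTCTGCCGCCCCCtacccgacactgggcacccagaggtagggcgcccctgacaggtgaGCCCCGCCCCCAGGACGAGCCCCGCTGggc
Epha7 promoter, chr4:28812881-28813065: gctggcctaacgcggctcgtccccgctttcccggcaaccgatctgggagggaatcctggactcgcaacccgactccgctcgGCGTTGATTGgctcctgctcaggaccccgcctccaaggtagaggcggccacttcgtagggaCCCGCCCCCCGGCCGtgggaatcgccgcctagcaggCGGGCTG
The Ephb3 stretch holds the SP/KLF motif GGGGCGGGG at position 104, counted from 1 at the first base printed, and all 9 of its bases lay in a footprint of both replicates. The Efnb2 stretch holds the same motif on the other strand at position 170, printed as CCCCGCCCC, again wholly inside a footprint of both replicates.

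Another set of sequences shows regions that contain the core of the binding motif of CTCF, the protein that anchors chromatin loops and insulates domains. The string searched, on both strands, was CCA, AG and GGC with 2 free bases after each of the first and second parts.
Slit1 upstream region, chr19:41763961-41764180: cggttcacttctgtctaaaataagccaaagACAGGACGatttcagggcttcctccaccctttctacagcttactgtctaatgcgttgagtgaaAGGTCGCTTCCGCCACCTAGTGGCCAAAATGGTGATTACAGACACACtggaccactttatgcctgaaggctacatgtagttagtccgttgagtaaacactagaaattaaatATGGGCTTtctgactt
Plxnd1 upstream region, chr6:116010621-116010840: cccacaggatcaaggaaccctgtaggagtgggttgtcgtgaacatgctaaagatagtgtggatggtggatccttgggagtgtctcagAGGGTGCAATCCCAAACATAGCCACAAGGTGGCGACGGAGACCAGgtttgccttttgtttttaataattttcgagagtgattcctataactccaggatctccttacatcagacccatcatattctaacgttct
Robo1 intronic region, chr16:72605181-72605360: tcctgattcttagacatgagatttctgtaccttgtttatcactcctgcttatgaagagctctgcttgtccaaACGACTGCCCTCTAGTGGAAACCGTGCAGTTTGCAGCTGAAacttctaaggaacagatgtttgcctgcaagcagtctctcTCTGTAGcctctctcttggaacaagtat
Sema3b promoter, chr9:107602167-107602320: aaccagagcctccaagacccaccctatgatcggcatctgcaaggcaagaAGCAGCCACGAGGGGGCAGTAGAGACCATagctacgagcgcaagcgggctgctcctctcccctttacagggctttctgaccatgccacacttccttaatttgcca
The matches were GCCACCTAGTGG at position 105 of the Slit1 region, CCACAAGGTGGC at position 109 of the Plxnd1 region, GCCCTCTAGTGG at position 79 of the Robo1 region and CCACGAGGGGGC at position 55 of the Sema3b promoter. In each of the 4, all 12 bases of the match lay inside a footprint of both replicates. A further sequence is the strongest distal region of the receptor gene Ephb2, which held none of the motifs searched.
Ephb2 intronic region, chr4:136741841-136742140: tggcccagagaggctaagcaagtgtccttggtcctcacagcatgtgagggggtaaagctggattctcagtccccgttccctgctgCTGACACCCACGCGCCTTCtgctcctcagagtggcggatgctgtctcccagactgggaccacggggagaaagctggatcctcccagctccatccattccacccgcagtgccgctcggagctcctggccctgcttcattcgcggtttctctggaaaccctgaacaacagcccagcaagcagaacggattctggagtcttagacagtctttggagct

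Promoters of 48 of the 66 genes (72.7%, exact Clopper-Pearson 95% interval 60.4 to 83.0%) carried a peak in each replicate, against 59.1% of all autosomal protein-coding genes. Promoters were taken as all bases within 500 bp of a start site in the annotation. A gene with more start sites thus had more windows in which peaks were counted. The median was 4 start sites for the members and 3 over all genes. In replicate 1 the number was 51 and in replicate 2 it was 53, with 60.6% and 61.6% of all genes. The remaining genes split into 8 with a peak in 1 replicate only, a state held by 4.04% of all genes, and 10 with a peak in neither, against 36.9% of all genes. Receptors carried a peak in both replicates at 26 of 32 genes (81.3%, interval 63.6 to 92.8%) and ligands at 22 of 34 (64.7%, interval 46.5 to 80.3%). These intervals overlap. They cover counting error over genes, which are not independent replicates.

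Although most of the promoters were open, their peaks were weak. The value of a promoter is the signal the authors deposited for its strongest peak, on a scale that no label or file header states. The median of the mean over replicates was 1.60 for the 48 genes and 2.78 for the 12289 genes whose promoter held a peak in each replicate. The medians were 1.39 against 2.24 in replicate 1 and 1.82 against 3.28 in replicate 2. Of the 48 genes, 25 lay below the 25th percentile of all genes with such a peak and 3 lay above the 75th. In bulk tissue, a promoter open in few cells and one weakly open in many cells cannot be told apart.

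**Figure D1:**
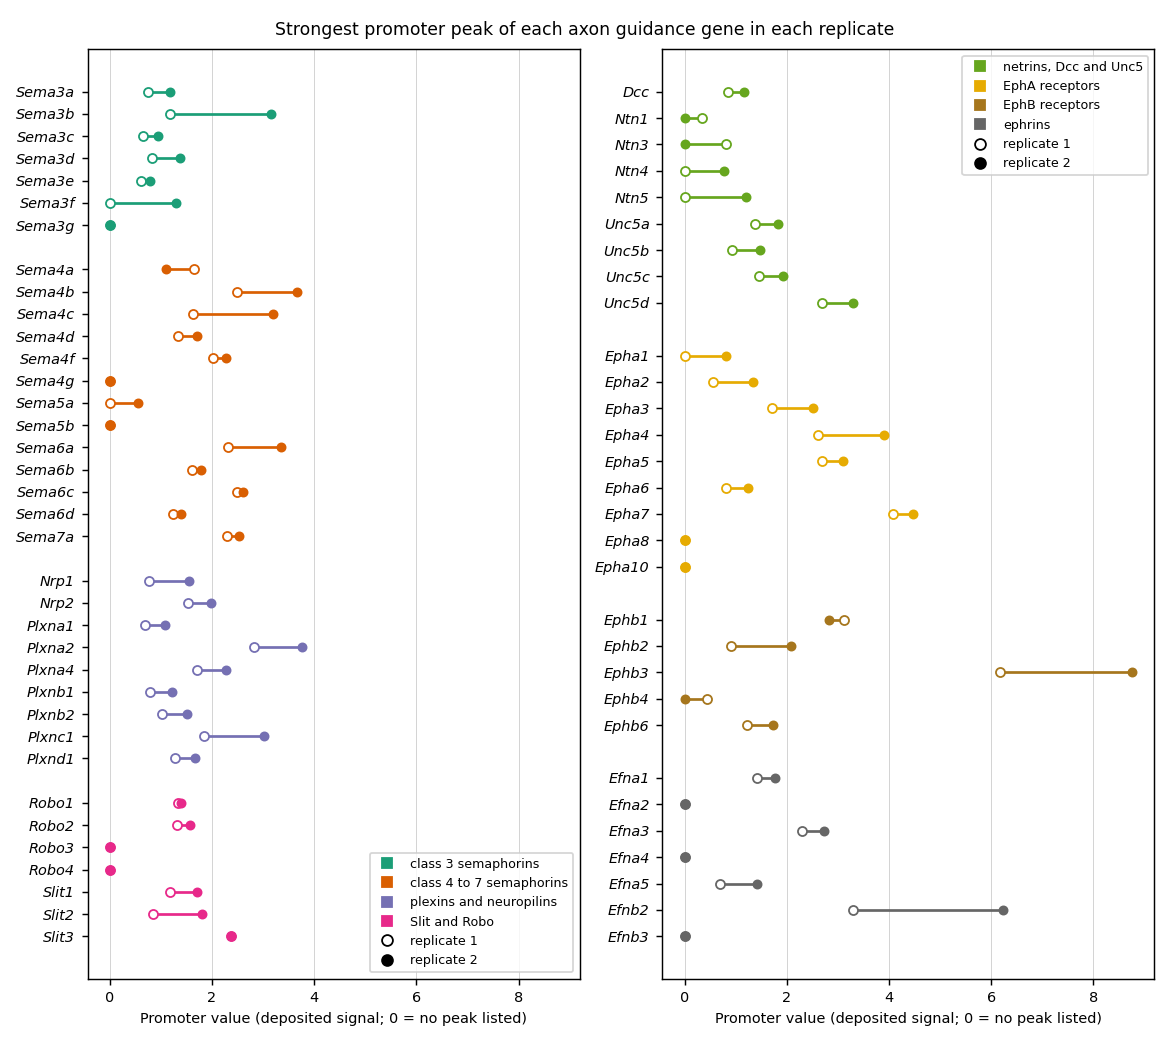
Strongest promoter peak of each of the 66 genes, grouped by family, with the deposited signal on the horizontal axis, open circles for replicate 1, filled circles for replicate 2 and a line joining them; 0 means that no peak was listed. Ephb3 stands apart at 6.16 and 8.76, and 10 genes lie at 0 in both replicates.

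Class 3 semaphorins, the secreted ligands, showed a promoter peak in both libraries at 5 of 7 genes, and their median value of 0.954 was the lowest of the 8 families. Sema3b measured 1.18 in replicate 1 and 3.16 in replicate 2. Its peak lay at the start of a transcript annotated as noncoding, and no promoter peak remained when start sites of coding transcripts alone were used. Sema3d followed at 0.830 and 1.36. Sema3a, the ligand known for collapsing growth cones, measured 0.741 and 1.17. Sema3e, a repellent that binds Plxnd1 directly, had the lowest mean promoter value of the 48 genes, with 0.606 and 0.776, although Epha2 was lower in replicate 1. Sema3c was next by the mean at 0.646 and 0.936. The Sema3e values equal 122 and 87 steps of the deposited scale, the step being the smallest unit of which all values of a library are whole multiples. Sema3f had a peak in replicate 2 only, at 1.28. Sema3g had none in either replicate.

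Class 4 to 7 semaphorins are anchored in the membrane. Of these 13 genes, 10 were open at the promoter in both replicates, with a median of 2.28. Sema4b was the highest at 2.50 and 3.66, and Sema6a, which acts through A-type plexins, measured 2.31 and 3.35. Sema6c equalled Sema4b in replicate 1, at 2.50. Sema4a was low and went against the general order of the replicates, with 1.66 in replicate 1 and 1.10 in replicate 2, taken from peaks at different start sites. Sema6d was the lowest at 1.24 and 1.39. Sema5a had a peak in replicate 2 only, at 0.553, and that peak also touched the start of the noncoding gene Snhg18. Sema4g and Sema5b had no peak in either replicate.

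All 9 plexin and neuropilin promoters were open in both replicates, as the only family to do so. Their values were modest, with a median of 1.47. Plxna2 was the highest at 2.82 and 3.76, and Plxnc1, the receptor for Sema7a, measured 1.85 and 3.01. Plxna1 was the lowest at 0.696 and 1.07, followed by Plxnb1, a receptor for Sema4d, at 0.790 and 1.22. Nrp1, the co-receptor for Sema3a, measured 0.770 and 1.55 at peaks that did not overlap between the replicates. Nrp2 measured 1.54 and 1.98.

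The Slit genes were open at all 3 promoters, with 2.37 and 2.36 for Slit3, 1.18 and 1.71 for Slit1 and 0.835 and 1.81 for Slit2. The Slit3 peaks had their midpoints 508 and 528 bp from the nearest start site and overlapped the promoter window only in part. Slit3 was no longer open in both replicates with a window of 100 bp, so its values do not describe a peak at the start site itself. The receptors of the Slit proteins were split. Robo1 measured 1.34 and 1.39 and Robo2 measured 1.31 and 1.57, so each rose by less than the 1.41-fold by which replicate 2 exceeded replicate 1 over all genes. Robo3, known for letting axons cross the midline, and Robo4, known from endothelium, had no promoter peak in either replicate.

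Netrin genes had peaks in one library or the other. None of the 4 had a promoter peak in both replicates. Ntn1, the classical attractant, had a peak of 0.333 and Ntn3 one of 0.810 in replicate 1 only. Ntn4, a netrin of basement membranes, had a peak of 0.767 and Ntn5 one of 1.20 in replicate 2 only. The longer deposited peak list, which holds more regions per library, had a promoter peak for all 4 in both replicates. In that list Ntn1 measured 0.333 and 0.660, Ntn3 0.810 and 1.29, Ntn4 0.383 and 0.767 and Ntn5 0.661 and 1.20. Each was higher in replicate 2, also Ntn1 and Ntn3, which lacked a peak there in the shorter list. Netrin receptors were open in both replicates at all 5 genes. Unc5d was the highest at 2.69 and 3.29 and Unc5c was next at 1.45 and 1.92. Dcc was the lowest at 0.845 and 1.17, and Unc5b, which is known from vessels as well as neurons, measured 0.934 and 1.47.

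Ephrins, the ligands of Eph receptors, were open in both replicates at 4 of 7 genes. Efnb2 reached 3.30 and 6.22, with a mean of 4.76 ± 2.07 (SD, n = 2), the 83.9th percentile of all genes open in both. Its strongest peak also touched the promoter of the noncoding gene 4921522P10Rik. Efna3 measured 2.29 and 2.73. The 2 lowest were Efna5 at 0.696 and 1.42 and Efna1 at 1.41 and 1.77. Efna2, Efna4 and Efnb3 had no promoter peak in either replicate. Efnb2 was thus high in both replicates while its relative Efnb3 was not detected by peaks of the shorter list.

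Of the 9 EphA receptor genes, 6 were open at the promoter in both replicates. Epha7, a receptor known from cortical map formation, measured 4.08 and 4.48, with a mean of 4.28 ± 0.283 (SD, n = 2) at the 77.7th percentile. Epha4, which binds ephrins of either class, measured 2.60 and 3.91. Epha2 was the lowest at 0.562 and 1.33, and Epha6 followed at 0.815 and 1.24. Epha1 had a peak in replicate 2 only, at 0.802. Epha8 and Epha10 had none.

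Of the 5 EphB receptor genes, 4 were open at the promoter in both. Ephb3 measured 6.16 and 8.76, with a mean of 7.46 ± 1.83 (SD, n = 2), at the 98.9th percentile, the only one of the 48 genes above the 90th. Its replicate 1 value exceeded the values of every other member in that library, and the same held in replicate 2. Ephb1 measured 3.13 and 2.82. Ephb6, whose kinase domain is inactive, measured 1.21 and 1.73, and Ephb2, a receptor found at excitatory synapses, measured 0.915 and 2.08. Ephb4, the partner of Efnb2 in vessels, had a peak of 0.437 in replicate 1 only.

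The 10 genes without a promoter peak were not all devoid of open chromatin. The longer list gave Efnb3 0.507 and 0.580, Sema5b 0.527 and 0.562 and Epha8 0.323 and 0.383, so 3 of the 10 had a weak promoter peak in both replicates there, against 4.22% of all genes with no peak in the shorter list. Of the 8 genes with a peak in 1 replicate, 7 had one in both replicates in the longer list, against 74.7% of such genes. With that list, 58 of the 66 genes were open at the promoter in both, against 63.6% of all genes. Intervals with a false discovery rate of 0.001 or less touched the promoters of 50 of the 66 genes in both replicates, against 59.9% of all genes. They touched 2 of the 10 genes, Robo3 and Epha10, against 0.378% of all genes without a peak.

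Several of these genes had a shared region just outside the promoter window. Positions are given from the nearest start site of the gene, negative when upstream. The strongest distal region of any member lay in a GENCODE intron of Robo3 at -0.667 kb from one of its start sites, chr9:37430681-37430920, with values of 2.82 and 5.56. This region held a match to the CTCF core. Epha10 had an exonic region at 0.802 kb, chr4:124881581-124881820, with 2.25 and 2.17. Sema4g had an intergenic region at -1.06 kb with 1.49 and 1.58, and Sema5b one at -0.714 kb with 0.527 and 1.62. With a window of 2000 bp all 4 counted as having a promoter peak in both replicates, as did Ntn3, Ntn5 and Sema5a, which brought the number to 55 of 66, against 63.0% of all genes with that window. Robo4, Efna4 and Efnb3 were the only members with neither a promoter peak nor a distal region.

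CpG content was measured as the ratio of observed to expected CpG within 500 bp of a start site. The highest ratio over a gene's start sites was taken, whether or not that site had the peak. This ratio was 0.6 or more at 53 of 66 members and at 11220 of 20807 genes in all. The median ratio was 0.759 for the 48 genes with a peak in both replicates and 0.613 for the 10 with none. Over all genes the medians were 0.771 and 0.222. At a ratio of 0.6 or more, 42 of 53 members (79.2%) had a peak in both replicates against 89.8% of all genes, and the median value was 1.64 against 3.03. Below that ratio it was 6 of 13 members (46.2%) against 23.1%. The CpG-rich members thus carried a peak less often than CpG-rich genes in general and the CpG-poor members more often, as a description of these counts. Genes with a peak in both replicates were long, with a median of 144 kb, against 13.8 kb for the 10 genes with none, and over all genes these medians were 26.7 and 8.44 kb.

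Footprints were found in the promoter peaks of 47 of the 48 genes in both replicates (97.9%), the same share as over all genes (97.9%). Sema3c was the exception, with 2 footprints in replicate 1 and none in replicate 2. The median was 5 footprints per gene in replicate 1 and 5.5 in replicate 2, and 5 in each over all genes. At least 2 separate promoter regions were shared between the replicates at 20 of the 66 genes (30.3%), against 21.1% of all genes. No member's strongest promoter peak also lay in the promoter of another protein-coding gene, and 9 touched that of a noncoding gene. The shares over all genes are not given for these counts, so they are not read as particular to the members.

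Replicate 2 was higher than replicate 1 by 1.41-fold at the median over all genes whose promoter had peaks in both. It was higher at 45 of the 48 members, against 93.7% of all such genes. The exceptions were Sema4a, Slit3 and Ephb1. After this shift was removed, the median difference of the members was 0.01 on the log2 scale (replicate 1 over replicate 2). The SD over all genes was 0.35, and 33 of the 48 members lay within 1 SD. The share of all genes within 1 SD is not given here. The largest differences toward replicate 1 were 1.09 for Sema4a, 0.65 for Ephb1, 0.51 for Slit3, 0.45 for Robo1 and 0.44 for Sema6c, which measured 2.50 and 2.60. Those toward replicate 2 were -0.92 for Sema3b, -0.74 for Epha2, -0.68 for Ephb2, -0.62 for Slit2 and -0.53 for Efna5. The strongest peaks of the replicates did not overlap at 4 members (Sema4a, Sema4d, Nrp1 and Unc5a), against 5.55% of all genes open in both, so for these the difference compares different peaks.

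**Figure D2:**
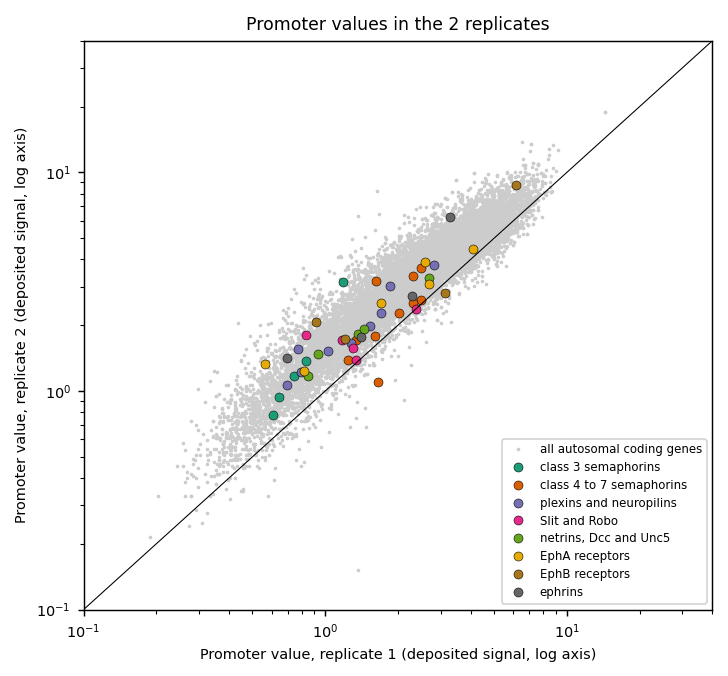
Promoter value in replicate 1 (horizontal, log axis) against replicate 2 (vertical, log axis), in deposited signal, with each gene open at its promoter in both as a grey point and the 48 axon guidance genes coloured by family. Most members lie in the lower part of the cloud, with Ephb3, Efnb2 and Epha7 at the top and Sema3b displaced toward replicate 2.

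Distal open regions were more frequent around these genes than around most. A distal region was one with a peak in both replicates and no base within 500 bp of any gene's start site, assigned to the closest start site of a protein-coding gene, up to 100 kb away. At least 1 was assigned to 57 of the 66 genes (86.4%), against 53.9% of all genes. At least 5 were assigned to 28 genes (42.4%), against 11.0%, at least 8 to 17 genes, against 4.03%, and at least 10 to 10 genes, against 2.27%. The total was 289 regions, with a median of 2.5 per gene against 1 over all genes. Receptors had a median of 5 and ligands a median of 2, with 25.7 and 24.0 regions per Mb of the sequence nearest to their start sites.

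The counts went with the amount of surrounding sequence. The stretch for which a member held the nearest coding start site had a median of 136 kb, against 43.5 kb over all genes. Per Mb of such sequence the members had 24.9 distal regions and all genes 22.5. Across genes, the count rose with this stretch, with a Spearman rho of 0.767 over the 66 members and 0.634 over all genes, given as descriptions because genes share libraries and neighbours. Among the genes with stretches over 102 kb, the 37 members had a mean of 6.84 regions and all genes had 4.23. Stretches in this group ran up to 1565 kb and were not matched in length, so these means do not compare genes of equal stretch.

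**Figure D3:**
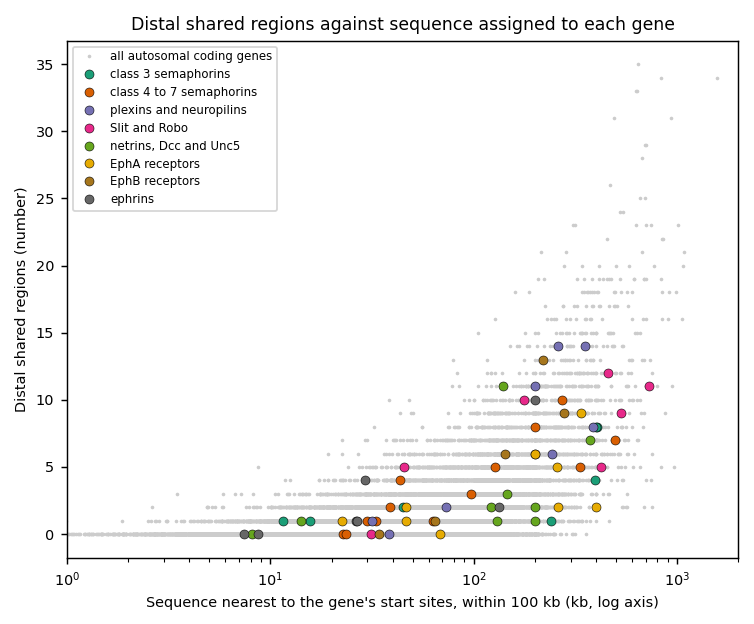
Number of distal shared regions (vertical) against the length of sequence nearest to each gene's start sites (horizontal, kb, log axis), for all autosomal coding genes in grey and the 66 axon guidance genes in colour by family. The counts climb with the length, and many of the members sit at the long end, with a median of 136 kb.

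The 10 genes with the most distal regions held 116 of the 289 (40.1%). They came from each ligand and receptor system. Plxna2 and Plxnc1 had 14 each, Ephb2 had 13, Slit3 had 12, and Nrp2, Robo1 and Unc5a had 11 each. Efna5, Sema6a and Slit1 had 10 each. By family the medians were 9 for Slit and Robo genes, 6 for plexins and neuropilins and for EphB receptors, 3 for class 4 to 7 semaphorins, 2 for class 3 semaphorins, EphA receptors and the netrin system, and 1 for ephrins. Per Mb of nearest sequence the order was another, with 41.8 regions for ephrins, 39.4 for EphB receptors, 34.8 for plexins and neuropilins and 26.4 for class 4 to 7 semaphorins. Slit and Robo genes had 21.8 per Mb, the netrin system 21.1, EphA receptors 17.1 and class 3 semaphorins 16.6, all below the 22.5 of all genes. A high count did not require a strong promoter, since Efna5 and Ephb2 had promoter values among the 2 lowest of their families. Ephb3, with the strongest promoter, had 6 distal regions, all of them outside the gene. No distal region was assigned to 9 genes, which were Sema4c, Sema6b, Plxnb1, Robo4, Ntn3, Epha2, Ephb4, Efna4 and Efnb3.

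**Figure D4:**
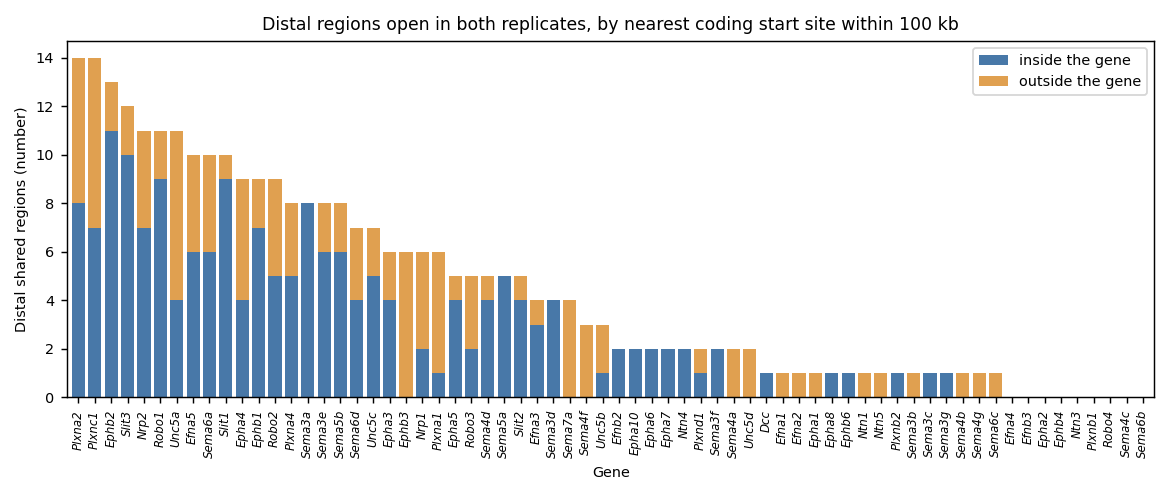
Number of distal shared regions of each of the 66 genes in falling order, split into those inside the gene (blue) and those outside it (orange). The first 2 genes, Plxna2 and Plxnc1, have 14 each and the last 9 have 0.

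Of the 289 regions, 168 (58.1%) lay in an intron of their own gene, against 46.0% of all distal regions, and 96 (33.2%) were intergenic, against 37.3%. The median distance to the start site was 23.4 kb, against 16.2 kb, and 78 regions (27.0%) lay beyond 50 kb, against 17.5%. Their strength was ordinary, with a median value of 0.953 against 1.00. A footprint in both replicates was present in 264 (91.3%), against 90.7%. Nearest start sites do not show which gene a distal region acts on.

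**Figure D5:**
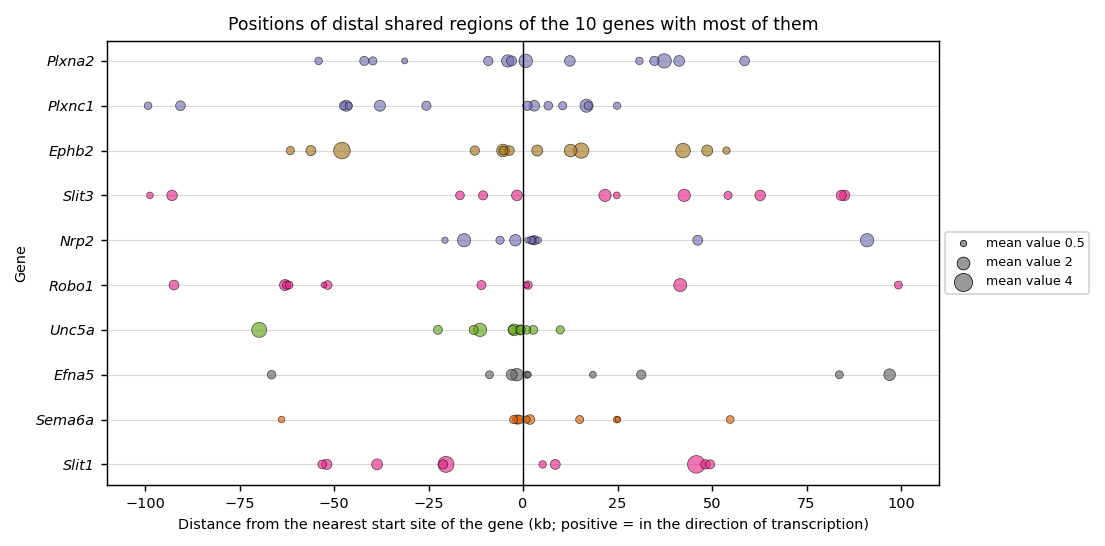
Position of the distal shared regions of the 10 genes with the most, as distance in kb from the gene's nearest start site (positive in the direction of transcription), with the area of each circle proportional to its mean value. Regions lie on both sides of the start sites out to the limit of 100 kb, and the largest circle belongs to an intronic region of Slit1 with a mean of 3.82.

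The 10 strongest distal regions were spread over 8 genes, with 2 each at Slit1 and Ephb2. After the Robo3 region came one of Epha4 at -1.33 kb, inside a noncoding gene, chr1:77516281-77516560, with values of 2.35 and 5.88. Slit1 had an intronic region at 45.8 kb, chr19:41697501-41697780, with 3.52 and 4.13. The intronic region of Ephb2 printed above measured 3.25 and 3.51, with a mean of 3.38 ± 0.186 (SD, n = 2), and another at 15.4 kb, chr4:136678541-136678760, measured 1.01 and 4.71. The first of these pairs was close between the replicates while the second differed widely. Sema4a had a region past its annotated end, chr3:88435621-88435880, with 3.02 and 3.24. Efna3 had an intronic region at 4.63 kb, chr3:89316901-89317100, with 2.08 and 3.74. Unc5a had an intergenic region at -69.8 kb, chr13:54879461-54879680, with 2.29 and 3.27. Sema7a, a membrane-linked semaphorin, had an intergenic region at -4.23 kb, chr9:57935781-57935980, with 1.66 and 3.66.

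Of the motifs present in at least 10 of the members' distal regions, the CTCF core went with the widest difference between the replicates. This comparison was added after the replicate values had been seen. The core was present in 26 of the 289 regions (exact 95% interval 5.96 to 12.9%), against 13.4% of all distal regions. All 26 were higher in replicate 2, as were 4543 of the 4676 regions with the core over all genes. Without regard to the motif it was 249 of the 289 regions, and 29175 of 34928 over all genes. The median fold of the 26 was 2.21, against 1.28 for the 263 without the core. Over all genes the folds were 2.16 for 4676 regions with the core and 1.30 for 30252 without. The upstream region of Slit1 printed above, at -20.4 kb, measured 1.42 and 4.89. The Plxnd1 region at -15.7 kb measured 0.944 and 3.34, and the Robo1 region at 41.6 kb measured 1.17 and 3.005. Other regions with the core differed less, such as one of Nrp2 at -6.1 kb with 0.775 and 0.901. Another, of Epha3 at -8.3 kb, measured 0.492 and 0.597. Among the members' promoter regions shared by the replicates, 6 of 77 held the core, against 4.63% over all genes. Sema3b, whose promoter holds the core, also had the largest difference toward replicate 2 among the promoters. The promoter peak of Plxna1 holds a match too, with 5 of its 12 bases in a footprint of both replicates, and its difference was -0.12. The core lay wholly inside a footprint at 19 of the 26 regions in replicate 1 and at 23 in replicate 2 (73.1% and 88.5%), against 67.2% and 80.0% of all distal regions with the core. With 1 library per replicate, whether the libraries or the tissue pieces differ cannot be told apart.

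For the other frequent motifs the interval of the members held the share over all distal regions. The AP-1 string TGANTCA was present in 13.8% of the members' regions (interval 10.1 to 18.4%), against 17.1%. The E-box CAGATG, bound by proneural factors, was present in 32.2% (26.8 to 37.9%), against 30.0%, and CAGCTG in 26.0% (21.0 to 31.4%), against 21.1%. The MEF2 string, CTA and TAG with 4 free bases between them, was present in 4.15% (2.16 to 7.14%), against 4.46%. Regions with CAGATG were higher in replicate 2 by 1.21-fold at the median among members and by 1.28-fold over all genes, which is less than the fold for the CTCF core in each case. A match describes the letters of a region and does not show that a factor was bound.

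Other genes of axon guidance signalling were a list of 56 ligands, receptors and cytoplasmic effectors outside the 66. A promoter peak in both libraries was found at 52 of them (92.9%, interval 82.7 to 98.0%), against 59.1% of all genes. The interval covers counting error over genes of a list chosen with earlier results known. These 56 genes had a median of 6 start sites, against 3 over all genes. Their median value was 2.62, and it differed between the kinds of gene. The effectors, which relay guidance signals to the cytoskeleton, were open at 40 of 41 promoters with a median of 2.78, the same as over all genes. The other ligands and receptors were open at 12 of 15 with a median of 1.66, close to the 1.60 of the members. The highest were Gsk3b, a kinase, at 7.96 and 9.66, Nck1, an adaptor, at 6.14 and 8.49, and Rhoa, a small GTPase, at 6.06 and 8.43. Thus the 3 highest of this list were all effectors and lay near Ephb3 in level. Ptprd, a receptor phosphatase, had 18 distal regions, and Dscam, an adhesion receptor, and Mical2, an oxidase acting on actin, had 17 each. Draxin, a secreted repellent, and Fes, a kinase, had no promoter peak in either replicate.

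Cell type markers were listed beside the tissue label. Markers of excitatory cortical neurons were open at the promoter in both replicates at 3 of 6 genes, each of the other 3 having a peak in 1 replicate. Markers of hepatocytes were open at 0 of 6, none having a peak in either. Markers of astrocytes showed a promoter peak in both libraries at 4 of 6 genes, precursors of oligodendrocytes at 2 of 4, oligodendrocytes at 2 of 5, striatum at 2 of 4, mural cells at 1 of 4, and inhibitory neurons, microglia and endothelium at 1 of 6 each. Over all genes, 59.1% were open in both replicates. The excitatory and striatum lists had equal shares, so these counts cannot tell cortex from striatum. The summed values of the excitatory markers were 7.63 in replicate 1 and 8.997 in replicate 2. Those of astrocytes were 4.58 and 7.89, and those of endothelium 1.81 and 2.35. Precursors of oligodendrocytes summed to 3.90 and 4.69 and striatum to 3.19 and 4.23. Sums for oligodendrocytes were 1.55 and 2.84, and those for inhibitory neurons 1.06 and 0.981. Microglia summed to 1.08 and 1.29 and mural cells to 0.512 and 0.776. These sums run over lists of 4 to 6 genes, so they do not rank the cell types. The part of cell mixture in the promoter values was not tested. The shorter lists held 86601 and 88482 peaks, and 63564 autosomal regions were shared. On the reading that a step stands for 1 read per M (mega), the libraries would have held 201 M and 112 M reads, and the median peak rested on 145 (exact 95% Poisson interval 122 to 171) and 112 (92.2 to 135). These intervals cover counting error only.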

How the data were processed

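DNase-seq peak lists, footprints and false discovery rate (FDR) intervals were deposited for 2 libraries on mm10, per the deposited descriptions. Neither the aligner nor the peak caller is given in the sources used here. Each peak carries a signal that the authors deposited, with no stated scaling, and in each library all values were whole multiples of 1 step within 0.05 steps (0.00497 in replicate 1, 0.00892 in replicate 2). Every footprint row carries a deposited FDR p-value of 0.01, and the deposited FDR intervals lie below 0.05. The shorter peak list of each library was the main one. Genes and start sites came from GENCODE M21, and sequences from GRCm38.p6. RefSeq and GENCODE exons were removed from printed promoters. A gene with no listed peak is given as 0, which is not a measured absence.

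Promoters, shared regions (overlap of at least 1 bp) and nearest genes were computed with Python 3.11.15, numpy 2.4.6 and scipy 1.17.1, and these steps were tested on simulated peaks. Genes, lists and the rules were chosen with earlier results of these data known. Named in full are the 2 highest and 2 lowest members of each family, all members without a peak in both replicates, the 10 with the most distal regions, the 5 largest replicate differences each way, the members of the 10 strongest distal regions and, of the other pathway genes, the top 3 by each measure and those with no peak. The motif folds between replicates, Sema3a, Nrp1, Nrp2 and Robo2 were added after values were seen. Alternatives varied the peak list, strength, window, overlap, reach, start sites and replicates.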

Additional observations from a re-analysis of the deposited data

How the results depend on the processing

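The number of members open at the promoter in both replicates (48) ranged from 43 with the stronger 50% of peaks to 58 with the longer list, and it stayed above the share of all genes under each alternative run. The losses with stronger peaks were Efna5, Epha2, Plxna1, Sema3c and Sema3e. With a window of 100 bp the losses were Ephb2, Slit3 and Unc5a. The median promoter value ranged from 1.34 to 1.77 and stayed below the median of all genes under each alternative. The number of distal shared regions of all members (289) moved to 487 with the longer list and to 136 with the stronger 50% of peaks, since more or fewer regions enter by construction. Leaving out each replicate gave 51 to 53 members with a promoter peak, a median value of 1.34 to 1.77, 57 to 59 members with a distal region, 396 to 408 distal regions and 50 to 52 members with a promoter footprint. The median difference between the replicates was -0.00 with a window of 2000 bp and 0.07 with stronger peaks, against 0.01. Counts of distal regions of single members moved by over 1.5 times at 35 of the 66 members with the longer list and at 32 with stronger peaks, and at 22 without replicate 1 and 15 without replicate 2. Promoter values moved by more than the SD at 5 of 48 members with a window of 2000 bp. No paired analysis was possible because the study has 1 group.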

Other observations

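In the 77 promoter regions of the members that were shared by the replicates, the NRF1 string, GCGC and TGCGC with 1 free base between them, was found in 0 (exact 95% upper limit 4.68%), against 9.71% of the 16448 shared promoter regions of all genes. Several motifs were searched, and no correction was made for their number. NRF1 is known for promoters of broadly expressed genes, and a link to the breadth of expression of the members was not tested. The SP/KLF string was present in 18 of 77 (23.4%, interval 14.5 to 34.4%), against 19.9%, so this GC-rich string was not missing. The E-box CAGCTG was present in 19 of 77 (24.7%, interval 15.6 to 35.8%), against 17.8%. The EGR string GCGTGGGCG was present in 3 of 77 (3.90%, interval 0.811 to 11.0%), against 1.58% of all. Of these, 1 lay in the Efna3 promoter with all 9 bases inside a footprint of both replicates.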
